A study of Mus musculus with 46 samples.

Results

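The genes described here are 10 genes expressed by the hepatocytes around the central vein of the liver lobule, whose zonal expression is known to depend on WNT signalling: Glul, Oat, Cyp2e1, Cyp1a2, Axin2, Lgr5, Tbx3, Rhbg, Slc1a2 and Lhpp. They were taken by symbol from 4 tables of raw read counts, and all 10 were found among the 55416 genes of each table. The study sequenced bulk RNA from 46 livers, all from male mice and snap frozen, which form 10 groups. Plvap encodes a protein of endothelial and caveolar diaphragms, and its knockout in hepatic stellate cells came from the line labelled Plvaptm1.1Salm-Tg(Lrat-cre)1Rshw on C57BL/6JBomTac, in which Cre follows the Lrat promoter. Controls were littermates. Whether they carry Cre, and the ages of the mice, are not given in the labels.

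Chow-fed mice fasted for 12 h gave 6 control and 5 Plvap knockout livers. Chow-fed mice fasted for 10 h and refed for 2 h gave 4 of each. Western diet, given for 6 weeks together with fructose-containing drinking water, had 5 controls and 4 knockouts. High-fat diet, also for 6 weeks, had 5 controls and 5 knockouts, and both diet cohorts were fasted for 12 h. The last 2 groups were 4 C57BL/6N wild types and 4 whole-body Cav1 knockouts of the stock Cav1tm1Mls/J after a 6 h fast, so that stock and genotype cannot be told apart. Cav1 encodes the coat protein of caveolae. The free text of the treatment protocol gives a 12 h fast for all chow-fed mice, and the sample characteristics were followed where they differ.

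In the liver lobule, endothelial cells of the central vein release WNT ligands and R-spondin 3. These stabilise β-catenin in the adjoining hepatocytes, which then transcribe a set of pericentral genes with TCF/LEF factors. Glutamine synthetase (Glul), ornithine aminotransferase (Oat), the glutamate transporter Slc1a2 and the ammonia channel Rhbg serve the capture of ammonia and the handling of glutamate there. Cyp2e1 and Cyp1a2 are cytochromes P450 that oxidise ethanol, paracetamol and aromatic amines. Axin2 is a scaffold of the β-catenin destruction complex and a feedback target of the pathway, Lgr5 is a receptor for R-spondins, and Tbx3 is a transcription factor. Lhpp is a phosphatase for phosphohistidine.

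Promoters of 3 members with a called change are shown, because TCF/LEF factors are the known route from WNT to these genes. RefSeq promoters on GRCm38.p6 (250 bases before to 50 after the gene start) were listed for 6 of the 10 members: Glul, Slc1a2, Oat, Cyp2e1, Cyp1a2 and Axin2. They were searched on both strands for the TCF/LEF letters CTTTGAA or CTTTGAT or CTTTGTA or CTTTGTT. Matches are in capitals. The Oat sequence is at chr7:132576349-132576648 on the minus strand, Slc1a2 at chr2:102706188-102706487 on the plus strand and Cyp2e1 at chr7:140763569-140763868 on the plus strand.
Oat: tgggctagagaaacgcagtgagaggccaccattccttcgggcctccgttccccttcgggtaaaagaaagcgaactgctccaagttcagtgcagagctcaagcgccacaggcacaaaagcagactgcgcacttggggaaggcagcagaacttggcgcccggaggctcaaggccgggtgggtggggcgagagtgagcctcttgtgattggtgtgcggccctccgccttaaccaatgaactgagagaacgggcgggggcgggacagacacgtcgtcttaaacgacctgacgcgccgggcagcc
Slc1a2: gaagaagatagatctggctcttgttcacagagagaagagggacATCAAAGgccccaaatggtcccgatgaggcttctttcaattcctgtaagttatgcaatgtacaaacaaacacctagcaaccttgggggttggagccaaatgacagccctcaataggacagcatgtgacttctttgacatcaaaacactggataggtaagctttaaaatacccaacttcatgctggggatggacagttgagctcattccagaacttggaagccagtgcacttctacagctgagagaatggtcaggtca
Cyp2e1: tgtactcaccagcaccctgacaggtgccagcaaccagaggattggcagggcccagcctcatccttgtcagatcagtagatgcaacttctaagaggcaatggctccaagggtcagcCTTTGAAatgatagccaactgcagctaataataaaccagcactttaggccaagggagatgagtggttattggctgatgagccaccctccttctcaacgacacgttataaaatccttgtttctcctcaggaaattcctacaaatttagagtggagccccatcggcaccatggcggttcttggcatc

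Slc1a2 held 1 match, ATCAAAG, which begins at base -207 from the start and reads on the reverse strand. Cyp2e1 held 1 match, CTTTGAA, at base -135 on the forward strand. Cyp1a2 held TTCAAAG at base -244 on the reverse strand, and the windows of Glul, Oat and Axin2 held none. Of all 32851 promoters of this length in the table, 16.9% held at least 1 match. A match of these letters is a description of the window and not a binding site.

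Libraries held 6656340 to 23311500 counts. Plvap, the targeted gene, had 29.0 ± 4.91 CPM (library-scaled counts, TMM-normalised over all libraries; mean ± SD, n = 6) in chow fasted controls and 5.80 ± 1.03 (n = 5) in knockouts, and no control library of the Plvap line overlapped any knockout library in any of the 4 states. Cav1 fell from 4.66 ± 0.910 to 0.769 ± 0.490 CPM in its own experiment (n = 4 each). Hepatocyte markers were abundant in every library. Summed over 9 such genes they were at 66723 to 85318 CPM in chow fasted controls and 104581 to 134682 in knockouts, and the same list did not overlap between knockouts and controls in any of the 5 experiments. Albumin, in that list, took 2.72 to 3.49% of counts in chow fasted controls and 5.07 to 6.86% in knockouts. By edgeR it was the only gene of the 9 called in chow fasted livers (1.13% of genes called higher) and on high-fat diet (0.281% in either direction). In refed livers and on western diet 0 of 9 were called, where 0.0227% and 0.0148% of genes were. In the Cav1 experiment 4 of 9 were called higher, against 2.57% of genes. For the Plvap effect averaged over the 4 states, 4 of 9 were called higher, against 3.13% of genes. These were Alb (0.88 ± 0.07), Trf (0.44 ± 0.09), Apoa1 (0.30 ± 0.07) and Ttr (0.27 ± 0.07). The summed stellate and endothelial lists overlapped between knockouts and controls in all 5 experiments, while the lymphocyte list was at 13.2 to 17.99 CPM in chow fasted controls and 18.1 to 22.5 in knockouts. Prss1 of the pancreas and Umod of the kidney were near 0. A list of 6 genes of other organs reached 15.6 CPM in 1 western diet knockout library, nearly all of it the muscle actin Acta1, and had a median of 0.202 in that group. The part of these shifts in the results below was not tested. In bulk tissue, fewer cells of a type and less RNA per cell cannot be told apart.

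Oat and Lhpp were the members called lower in the Plvap knockout livers. In chow fasted livers, 2 of 10 members were called lower and none higher, against 1.12% of 12840 tested genes called lower (edgeR's quasi-likelihood F-test, Benjamini-Hochberg adjusted p under 0.05 over all genes). Over the 4 states of the Plvap line together, the mean effect again had 2 of 10 members called lower, against 2.45% of 14234 genes, and none higher. Members were chosen with earlier results of these data known, so that such counts are a description and no test of the set. The median log2 fold change of the members was -0.33 in chow fasted livers and -0.16 for the mean effect, where all tested genes had medians of -0.01 and -0.00. By edgeR with all libraries, the low-count filter and no block, the other 8 members were not called in any Plvap knockout comparison. In chow fasted livers, Axin2 and Tbx3 were called with the replicate letter as a block, Axin2 also with no filter (adjusted p = 0.0426), and Glul and Axin2 by DESeq2 (adjusted p = 0.0479 and 0.0478). Slc1a2 was called for the mean effect without 1 library, western control A.

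**Figure D1:**
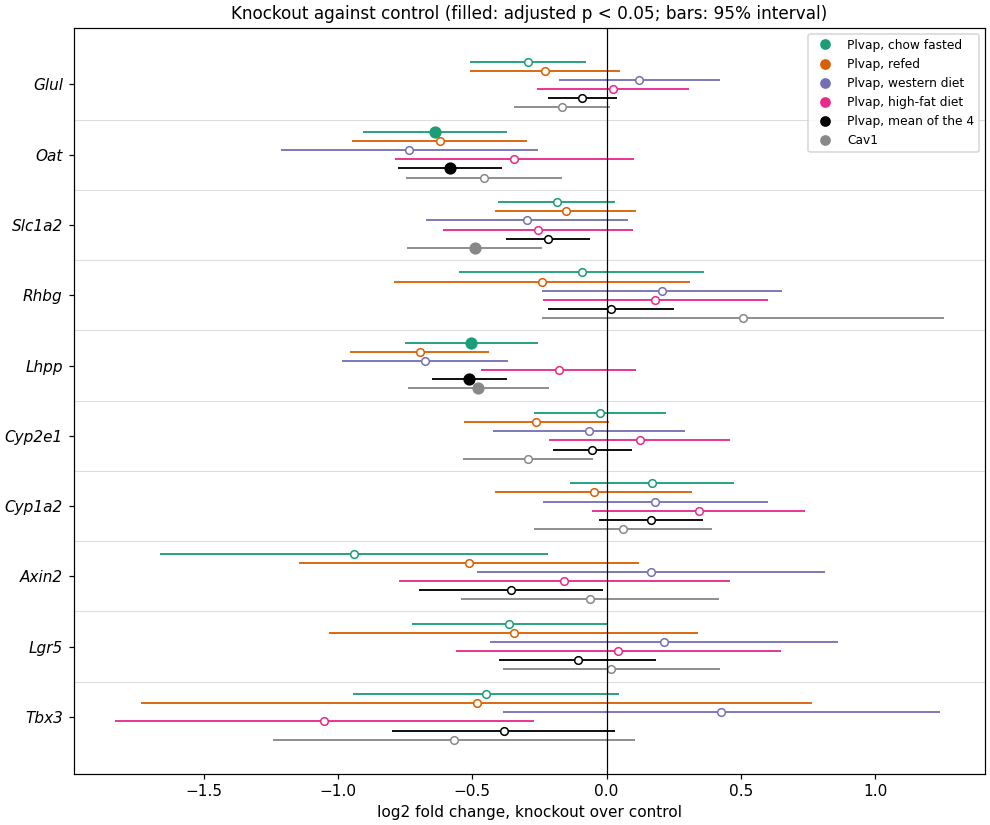
Log2 fold change of each member, knockout over control, with 95% intervals; filled points have an adjusted p under 0.05. Oat, Lhpp and Slc1a2 lie below 0 in all comparisons. On high-fat diet the intervals of Oat (-0.79 to 0.10) and Lhpp (-0.47 to 0.11) include 0, and those of Slc1a2 do in all 4 states. The intervals of Rhbg, Lgr5 and Cyp1a2 include 0 in all comparisons.

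Oat is the mitochondrial enzyme that turns ornithine into glutamate semialdehyde. The 6 chow fasted controls had 1551, 1620, 1248, 1329, 1606 and 1792 CPM of Oat, and the 5 knockouts had 756, 964, 1015, 974 and 1217. Every knockout was below every control. The log2 fold change was -0.64 ± 0.13 (SE; 95% interval -0.91 to -0.37, adjusted p = 0.0190), and Oat was the only member whose groups did not overlap, against 2.99% of 12212 genes with a mean of at least 1 CPM. Without knockout replicate B the adjusted p was 0.0503.

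Refed livers had 988, 1350, 1332 and 1552 CPM of Oat in controls and 943, 749, 796 and 890 in knockouts, again without overlap. The log2 fold change of -0.62 ± 0.15 was not called by edgeR with the low-count filter (adjusted p = 0.386). It was called by edgeR with no filter (adjusted p = 0.00112) and by DESeq2 (adjusted p = 0.0252). On western diet the 5 controls had 717, 1287, 1541, 1533 and 2086 CPM, and the 4 knockouts had 918, 783, 823 and 935. Only control A, at 717, was below the knockouts, and the log2 fold change was -0.73 ± 0.23 (adjusted p = 0.352). Without that control it was -0.90 ± 0.19 (adjusted p = 0.148). High-fat diet gave 1364, 1458, 1009, 858 and 845 CPM in controls and 878, 1090, 674, 973 and 739 in knockouts, groups that overlapped, with a log2 fold change of -0.34 ± 0.21 (adjusted p = 0.496). Averaged over the 4 states, Oat changed by -0.58 ± 0.10 (95% interval -0.78 to -0.39, adjusted p = 0.000145).

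Lhpp had the smallest p of the members for the mean Plvap effect. Chow fasted controls had 126, 149, 107, 117, 145 and 142 CPM, and knockouts had 86.0, 75.3, 101, 85.7 and 116. Knockout E, at 116, was the 1 knockout above the lowest control. The log2 fold change was -0.50 ± 0.12 (adjusted p = 0.0355). This call rested on the full set of libraries: leaving out controls A, B, E or F, or knockouts A, B or D, gave adjusted p values from 0.0521 to 0.0984.

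In refed livers Lhpp had 120, 123, 128 and 121 CPM in controls and 88.4, 70.1, 78.1 and 65.3 in knockouts, without overlap. Its log2 fold change of -0.70 ± 0.12 missed the threshold (adjusted p = 0.160). It was called with no filter, with the replicate letter as a block (-0.71, adjusted p = 0.0274) and by DESeq2 (adjusted p = 0.000274). Western diet controls had 84.4, 121, 143, 124 and 144 CPM, and the knockouts 77.7, 77.8, 77.1 and 77.8. All knockouts were below all controls, with a log2 fold change of -0.68 ± 0.15 (adjusted p = 0.163), which was -0.78 ± 0.13 without control A (adjusted p = 0.0182). DESeq2 and edgeR with no filter also called it. On high-fat diet the controls themselves were low, at 86.7, 104, 78.3, 58.2 and 73.4 CPM, and overlapped the knockouts at 63.1, 83.5, 70.9, 66.6 and 69.7. The log2 fold change there was -0.18 ± 0.14 (adjusted p = 0.597). The mean effect over the 4 states was -0.51 ± 0.07 (adjusted p = 5.9e-06).

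**Figure D2:**
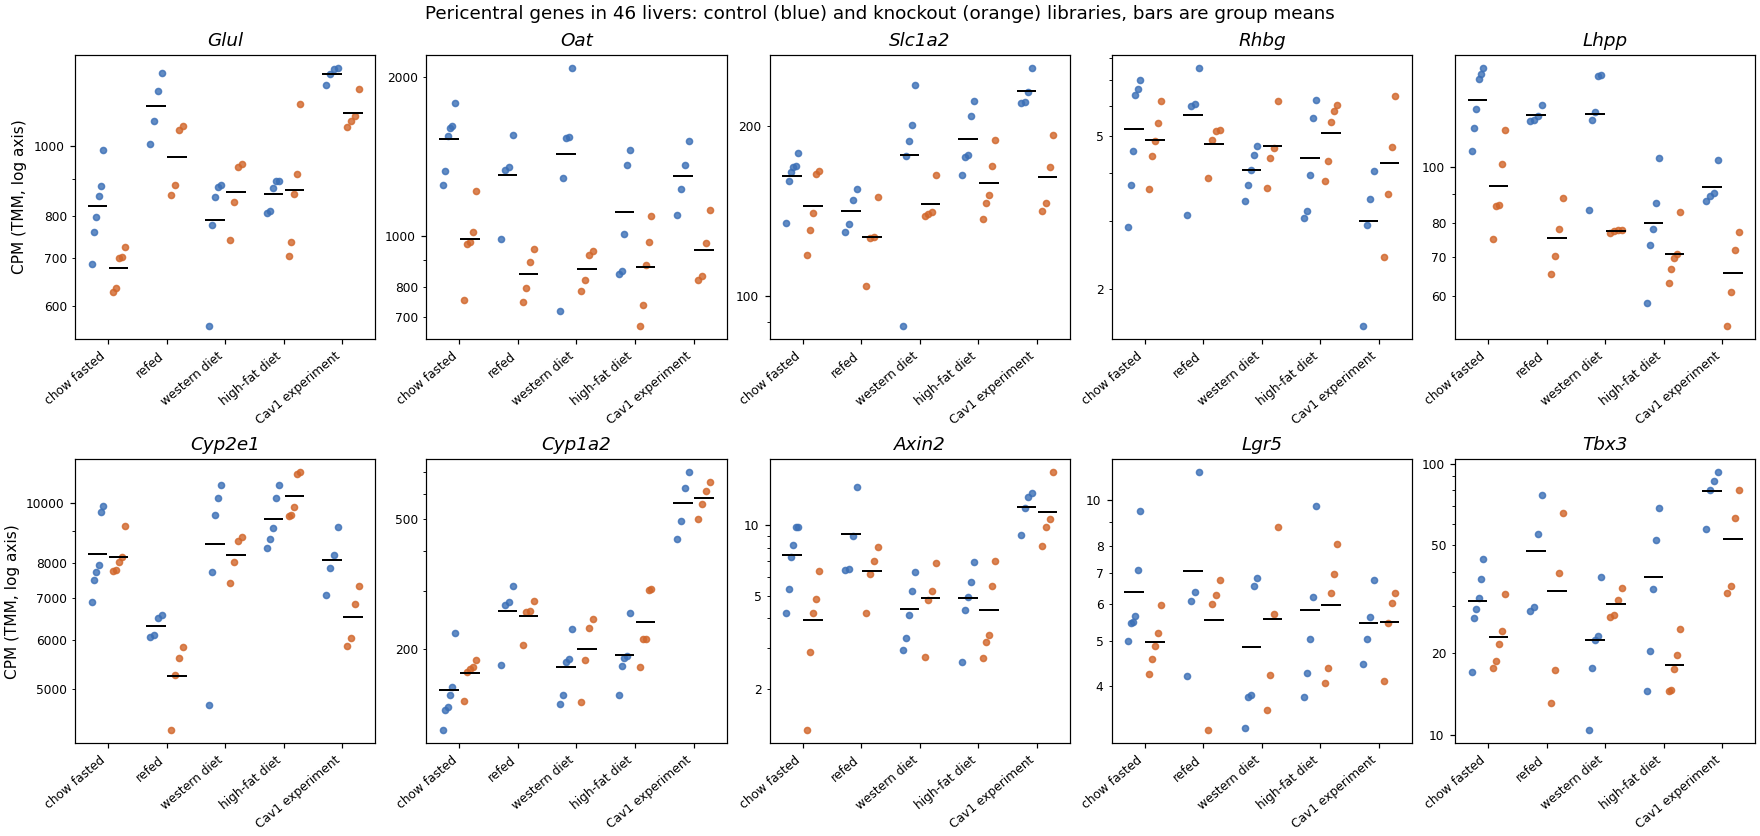
CPM of each member in every library (log axes), with controls in blue, knockouts in orange and group means as bars. Oat and Lhpp knockouts lie below most or all controls except for some on high-fat diet, and Cyp1a2 is highest in both groups of the Cav1 experiment.

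Counts of called members were 0 of 10 in refed livers (3 of 13228 genes called in either direction, 0.0227%), on western diet (2 of 13533, 0.0148%) and on high-fat diet (38 of 13533, 0.281%) by edgeR. At an unadjusted p under 0.05 there were 2, 2 and 1 members, where 1024, 1325 and 1873 of all tested genes had one. DESeq2 called 2, 1 and 0 members, and 59, 21 and 253 genes in all. Groups that did not overlap were found for 3 members in refed livers (Oat, Lhpp and Cyp2e1; 5.63% of genes), 1 on western diet (Lhpp; 3.23%) and 0 on high-fat diet (3.59%). All 10 members had a negative log2 fold change in refed livers, with a median of -0.30, while 6 of 10 were positive on western diet. The difference of the Plvap effect between western and high-fat diet was called for 0 of 10 members by edgeR and by DESeq2. Of all genes, 0 of 13533 (0%) were called by edgeR, with 1546 at an unadjusted p under 0.05, and 55 were called by DESeq2. Among members, Tbx3 (1.48 ± 0.53) and Lhpp (-0.50 ± 0.20) had an unadjusted p under 0.05 for that difference, with adjusted p values of 0.336 and 0.371.

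Oat and Lhpp lie close together. In the coordinates of the count tables (GRCm39), Oat spans chr7:132159207-132178127 on the minus strand and Lhpp chr7:132212367-132308149 on the plus strand, 34.2 kb apart with 2 annotated genes between them. The annotated span of Fgfr2 covers both, with no exon base in common. Neighbours were examined after the values of these genes had been seen. Within 1 Mb, 10 other genes were expressed, with log2 fold changes for the mean Plvap effect from -0.17 (Fam53b) to 0.10 (Zranb1). By edgeR 0 of the 10 were called, where 2.45% of all genes were called lower and 3.13% higher. With shares this low, 0 of 10 does not show that the neighbours were unchanged. Fam53b, which starts beyond Lhpp, had -0.99 ± 0.21 on western diet (adjusted p = 0.163) and 0.33 ± 0.18 in refed livers (adjusted p = 0.690).

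**Figure D3:**
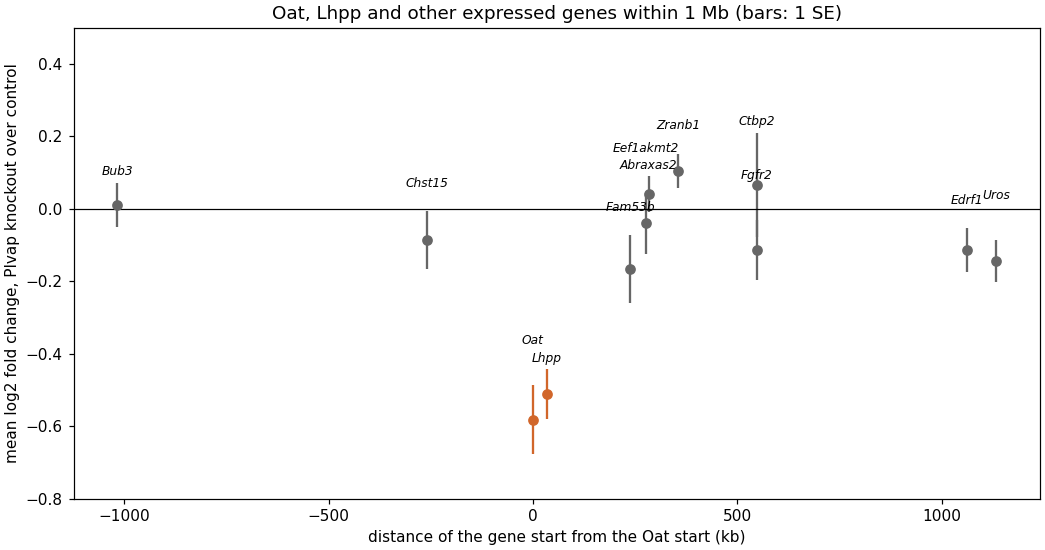
Mean log2 fold change of the Plvap knockout over 4 states (bars are 1 SE) against the distance of each gene start from the Oat start in kb, for expressed genes lying within 1 Mb. Oat and Lhpp sit at -0.58 and -0.51, and the other 10 genes between -0.17 and 0.10.

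Oat and Lhpp also varied together from liver to liver. After subtraction of group means, their log2 CPM correlated with r = 0.75 over 46 libraries, the highest of 45 pairs of members (median r = 0.14, with 35 pairs above 0). Cyp2e1 and Slc1a2 had r = 0.71, and Axin2 and Tbx3 r = 0.59. Axin2 and Rhbg had the lowest value, -0.37. These are descriptions, and paired genes share library, depth and tissue sample.

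**Figure D4:**
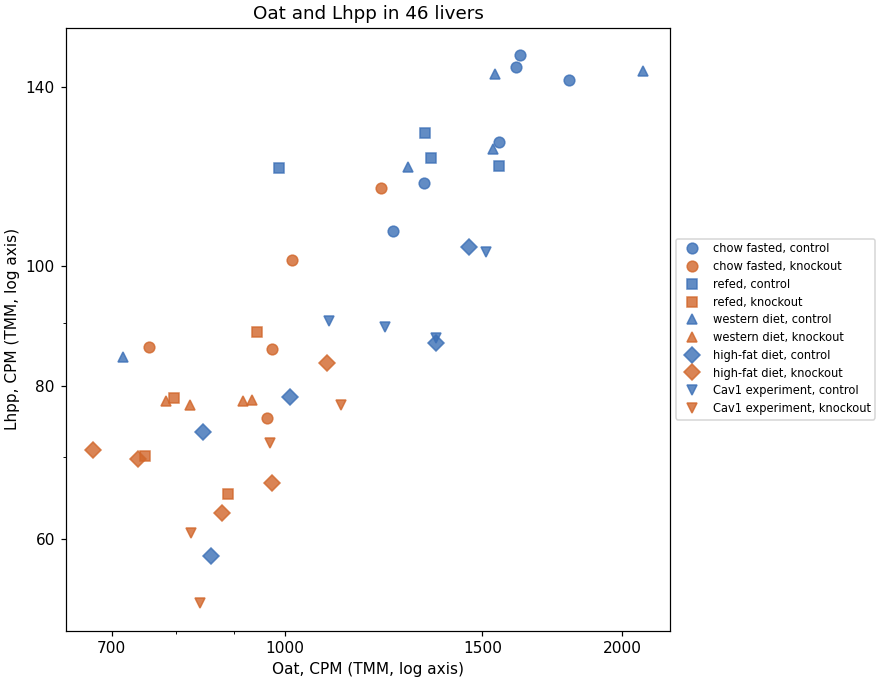
Oat against Lhpp in CPM (log axes) for the 46 libraries, with marker shape for the experiment, controls in blue and knockouts in orange. Knockouts gather at low values of both genes, together with several high-fat diet controls and control A of the western diet.

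Glul, the enzyme that makes glutamine from glutamate and ammonia, had 879, 759, 851, 796, 985 and 686 CPM in chow fasted controls and 702, 628, 724, 636 and 699 in knockouts. The groups overlapped, and the log2 fold change of -0.29 ± 0.10 was not called (adjusted p = 0.140; DESeq2 0.0479). For the mean Plvap effect it was -0.09 ± 0.06 (95% interval -0.22 to 0.04, adjusted p = 0.462). Glul shares 116 exon bases with Teddm2 on the opposite strand, and the counting strand is not given in the sources used here.

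Slc1a2, which takes up glutamate, had 179, 160, 169, 166, 170 and 135 CPM in chow fasted controls and 131, 164, 140, 118 and 166 in knockouts, with overlap. Its log2 fold changes in the 4 states of the Plvap line were -0.19 ± 0.10, -0.15 ± 0.12, -0.29 ± 0.18 and -0.25 ± 0.17 for chow fasted, refed, western and high-fat diet. The mean effect was -0.22 ± 0.08 (adjusted p = 0.0887), and it was called without western control A (-0.26 ± 0.06, adjusted p = 0.00356). That control, at 88.5 CPM where the other 4 had 177 to 236, was also the lowest of its group for Glul, Oat, Cyp2e1 and Lhpp. Rhbg was low throughout, with group means of 3.01 to 5.67 CPM, and its mean Plvap effect was 0.02 ± 0.12 (95% interval -0.22 to 0.25). Of its 1937 exon bases, 1190 are shared with the annotated gene Gm38392, so that reads may have been left unassigned or split.

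Neither cytochrome was called in the Plvap knockouts. Cyp2e1, the most abundant member, had 8264 ± 1214 CPM in chow fasted controls (n = 6) and 8171 ± 582 in knockouts (n = 5), and the mean Plvap effect was -0.05 ± 0.07 (95% interval -0.20 to 0.09). In refed livers its 4 knockouts, at 5597, 5266, 4285 and 5848 CPM, were all below the 4 controls, at 6100, 6579, 6054 and 6517, without a call (-0.26 ± 0.12, adjusted p = 0.651). Cyp1a2 had 130, 152, 144, 132, 223 and 112 CPM in chow fasted controls and 169, 185, 176, 138 and 173 in knockouts. On high-fat diet Cyp1a2 had 191 ± 41.5 CPM in controls and 242 ± 58.1 in knockouts (n = 5 each; 0.34 ± 0.19, adjusted p = 0.440), the largest of its 4 differences. Its mean Plvap effect was 0.16 ± 0.10 (adjusted p = 0.351). None of the other genes of the aryl hydrocarbon receptor list, a known inducer route of Cyp1a2, was called by edgeR in any of the 5 knockout experiments (6 or 7 tested in each). Few genes of any kind were called there: 0.0227% in refed livers, 0.0148% on western diet and 0.281% on high-fat diet. Per direction, the share was 1.12% to 1.13% in chow fasted and 2.11% to 2.57% in Cav1 knockouts. The activity of the receptor was not tested.

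The pathway targets Axin2, Lgr5 and Tbx3 were at low levels and varied widely. Axin2 had 9.83, 9.77, 7.31, 4.20, 8.21 and 5.32 CPM in chow fasted controls and 4.24, 4.86, 6.34, 1.34 and 2.89 in knockouts. The log2 fold change was the most negative of the members in that comparison, at -0.94 ± 0.33, and missed the threshold (adjusted p = 0.163), while DESeq2 (adjusted p = 0.0478) and the block (0.00687) called it. On western diet the change was 0.16 ± 0.31, and the mean effect was -0.36 ± 0.17 (adjusted p = 0.236).

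Lgr5 had 4.99 to 9.51 CPM in chow fasted controls (median 5.56) and 4.24 to 5.96 in knockouts, with a log2 fold change of -0.36 ± 0.17 (adjusted p = 0.284). Its group means spanned 4.85 to 7.04 CPM, the narrowest ratio of the members (1.45 times), and none of its 9 neighbouring groups in the order of means differed by more than the larger SD. Tbx3 had the widest ratio, 4.35 times, from 79.1 ± 15.4 CPM in C57BL/6N wild types to 18.2 ± 4.17 in high-fat diet knockouts.

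High-fat diet controls had 14.5, 34.6, 52.5, 68.4 and 20.4 CPM of Tbx3, and knockouts 24.6, 19.7, 14.7, 14.5 and 17.5, so that 3 controls were above all knockouts. The log2 fold change was -1.05 ± 0.37 (adjusted p = 0.212). In refed livers, Tbx3 controls A to D had 76.5, 55.3, 29.6 and 28.6 CPM and knockouts A to D 66, 39.4, 17.3 and 13.1. Each knockout was below the control of its letter, and the effect was -0.48 ± 0.54 without and -0.63 ± 0.14 with the letter as a block (adjusted p = 0.840 and 0.11). On western diet the Tbx3 difference had the other sign, with 22.4 ± 10.2 CPM in controls (n = 5) and 30.3 ± 3.56 in knockouts (n = 4; 0.43 ± 0.39, adjusted p = 0.758). The mean effect over the 4 states was -0.38 ± 0.20 (adjusted p = 0.304). In chow fasted livers it was -0.45 ± 0.23 (adjusted p = 0.334), and -0.58 with the block (adjusted p = 0.00490). Tbx3 shares 115 exon bases with Tbx3os1 on the opposite strand.

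The Cav1 knockout livers had 2 of 10 members called lower, against 2.11% of 12978 genes, and none higher. Slc1a2 had 253, 219, 220 and 229 CPM in wild types and 192, 146, 169 and 141 in knockouts. All knockouts were below all wild types, with a log2 fold change of -0.49 ± 0.11 (adjusted p = 0.0345). Lhpp had 87.5, 89.3, 90.2 and 103 CPM in wild types and 60.8, 71.8, 53.2 and 77.2 in knockouts, also without overlap (-0.48 ± 0.12, adjusted p = 0.0484). Leaving out any 1 of the 4 wild types ended both calls (adjusted p from 0.0662 to 0.137), as did leaving out knockout C; the Lhpp call was also lost without knockout A and the Slc1a2 call without knockout D.

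Oat in the Cav1 experiment had 1363, 1228, 1095 and 1512 CPM in wild types and 825, 969, 839 and 1121 in knockouts. Only knockout D exceeded the lowest wild type, and the log2 fold change of -0.46 ± 0.13 was not called (adjusted p = 0.0890; DESeq2 0.0230). Glul had 1281, 1277, 1214 and 1256 CPM in wild types and 1196, 1082, 1061 and 1099 in knockouts, without overlap and without a call (-0.17 ± 0.08, adjusted p = 0.304). In all, 3 members (Glul, Slc1a2 and Lhpp) had groups that did not overlap, against 13% of genes. Hepatocyte markers summed to 79578 to 90618 CPM in wild types and 101299 to 134287 in Cav1 knockouts, and the part of this in the result was not tested.

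Refed controls differed from chow fasted controls in 3 of 10 members, 2 higher and 1 lower, where 46.9% of 14234 genes were called in either direction. The groups come from different count tables, so that table and feeding state cannot be told apart. Counts of mitochondrial genes made up 0% of every refed library and 5.32% to 6.85% of the chow fasted controls. Kupffer cell markers summed to 199 to 319 CPM in refed and 410.6 to 649 in chow fasted controls, and 5 of 7 were called lower; the part of either in the result was not tested. Glul had 1188, 1261, 1005 and 1081 CPM in refed controls, all above the 6 chow fasted controls (0.47 ± 0.12, adjusted p = 0.00203). Cyp1a2 had 178, 279, 273 and 312 CPM (0.82 ± 0.19, adjusted p = 0.000433). Cyp2e1 was lower, with all 4 refed controls below all chow fasted ones (-0.38 ± 0.14, adjusted p = 0.0307). That call was lost without chow fasted control B or E or refed control A or C (adjusted p from 0.0567 to 0.0759). It was also lost with the trend with gene length removed (0.0875) and with the block (0.0646). The block here joined equal letters of different count tables, which no label pairs. Groups did not overlap for 2 members (Glul and Cyp2e1), against 37.3% of genes.

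Diet changed few members in the controls. High-fat diet against chow had 1 of 10 members called lower, Lhpp at -0.70 ± 0.13 (adjusted p = 0.000594), against 4.25% of genes, and no member higher. All 5 high-fat controls were below all 6 chow fasted controls for Lhpp, the only such member, against 8.12% of genes. Oat had -0.45 ± 0.18 in the same comparison (adjusted p = 0.107). Western diet against chow had 0 of 10 called by edgeR and by DESeq2 (1.81% of genes in either direction), with 1 member, Axin2, at an unadjusted p under 0.05 (-0.75 ± 0.32, adjusted p = 0.242). Both comparisons also span count tables.

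Within the diet table, Lhpp was higher on western than on high-fat diet in controls (0.61 ± 0.14, adjusted p = 0.0210), 1 of 10 members, against 1.1% of 13533 genes called higher. Leaving out high-fat control C, D or E, or western control C or E, ended the call (adjusted p from 0.0566 to 0.0723). In knockouts of the same diets the Lhpp difference was 0.12 ± 0.15 (adjusted p = 0.650). There 0 of 10 members were called by edgeR and by DESeq2, none had an unadjusted p under 0.05, and 8.45% of genes were called in either direction.

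**Figure D5:**
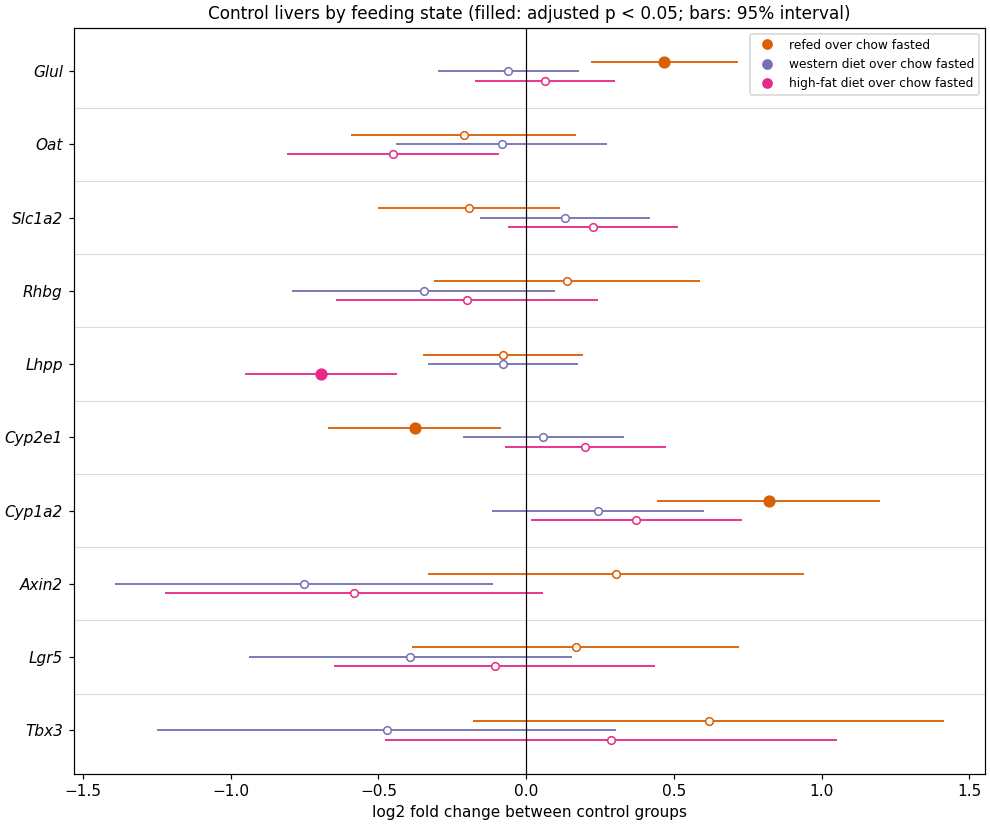
Log2 fold change of each member in control livers of 3 states over chow fasted controls, with 95% intervals; filled points have an adjusted p under 0.05. Refed livers had more Glul and Cyp1a2 and less Cyp2e1, and high-fat diet livers had less Lhpp.

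By level over the 10 groups, Cyp1a2 ranged from 149 ± 38.7 CPM in chow fasted controls to 580 ± 65.8 in Cav1 knockouts, 3.90 times, with C57BL/6N wild types at 562 ± 120. No test was made between these experiments, whose stock and fasting time differ. Axin2 ranged from 3.93 ± 1.91 CPM in chow fasted knockouts to 11.9 ± 2.10 in C57BL/6N wild types. Oat ran from 845 ± 88.1 CPM in refed knockouts to 1524 ± 201 in chow fasted controls, and no neighbouring groups in that order differed by more than the larger SD. Per kilobase of exon, in chow fasted controls, Cyp2e1 stood at 3829 CPM per kb, Oat at 646, Glul at 218, Cyp1a2 at 73.9 and Lhpp at 54.2. Slc1a2 stood at 12.4 CPM per kb, Tbx3 at 4.72, Rhbg at 2.69, Axin2 at 1.35 and Lgr5 at 0.619.

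The WNT ligand and R-spondin genes had no called member in any of the 5 knockout experiments by edgeR (7 tested in each), nor for the mean Plvap effect. Of all genes, 1.12% were called lower and 1.13% higher in chow fasted knockouts, and 2.11% and 2.57% in Cav1 knockouts. In either direction, 0.0227% were called in refed livers, 0.0148% on western diet and 0.281% on high-fat diet. With shares this low, 0 of 7 does not show that these genes were unchanged. Wnt2, a ligand of the central vein endothelium, had 7.16 ± 1.46 CPM in chow fasted controls and a mean Plvap effect of 0.19 ± 0.12. Rspo3, the R-spondin of those cells, had -0.21 ± 0.07 (adjusted p = 0.0702). Of 12 receptor and turnover genes, Fzd7 was called lower in chow fasted knockouts (-0.90 ± 0.21, adjusted p = 0.0380), and Lgr4, an R-spondin receptor, higher for the mean effect (0.28 ± 0.08, adjusted p = 0.0308). Of 7 secreted inhibitors, Dkk3 was called lower for the mean effect (-0.41 ± 0.13, adjusted p = 0.0449). Of 22 β-catenin genes, Ctnnbip1, which blocks β-catenin from TCF, was called higher for it (0.26 ± 0.07, adjusted p = 0.0225). Of all genes, 2.45% were called lower and 3.13% higher for the mean effect. In the Cav1 experiment the β-catenin list had Tnks called lower (-0.52 ± 0.12, adjusted p = 0.0325). None of these 3 lists had more than 1 gene called in any 1 knockout comparison.

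Among 25 other pericentral genes, 2 were called lower for the mean Plvap effect, against 2.45% of genes, and none higher: the aldehyde dehydrogenase Aldh3a2 (-0.997 ± 0.154) and the proteasome subunit Psmd4 (-0.32 ± 0.04). The list's median was 0.02. Of 21 periportal genes, 7 were called higher and 1 lower, against 3.13% of genes called higher, with a median of 0.20. Those with the smallest p were Uroc1, which breaks down histidine (0.41 ± 0.06), Cyp2f2 (0.39 ± 0.07), the dehydrogenase Hsd17b6 (0.81 ± 0.18) and Gls2, described below. The 1 lower gene was the apolipoprotein Apoa4 (-0.70 ± 0.17). By state, the periportal median was 0.17 in chow fasted, 0.28 in refed, -0.08 in western diet and 0.45 in high-fat diet knockouts. Of 22 genes of glutamine, ornithine and ammonia handling, 3 were called higher, against 3.13% of genes, and none lower: the glutamine carrier Slc38a3 (0.35 ± 0.08), the glutaminase Gls2 (0.32 ± 0.08) and the urea cycle enzyme Otc (0.20 ± 0.06). Gls2 and Otc are also in the periportal list. These lists were chosen with earlier results of these data known, so that the shares are a description and no test of a list.

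In chow fasted livers alone, 1 of 25 pericentral genes was called lower (Psmd4), against 1.12% of genes, and 1 of 21 periportal genes higher (Uroc1, 0.46 ± 0.10), against 1.13% of genes called higher. The Cav1 experiment had 4 of 25 pericentral genes lower, against the 2.11% of genes called lower, and 1 higher, against 2.57% called higher. The 4 were the cytochromes Cyp2c37 (-1.86 ± 0.17), Cyp2a5 (-1.19 ± 0.14) and Cyp2c50 (-1.11 ± 0.10) and the glutathione transferase Gstm6 (-0.76 ± 0.14), and the 1 was the amino acid transporter Slc1a4 (0.86 ± 0.19). Of 21 periportal genes in the Cav1 experiment, 4 were called higher, against 2.57% of genes, and 1 lower, against 2.11%. Apoa4, lower for the mean Plvap effect, was higher there (2.62 ± 0.17, adjusted p = 1.08e-05). Gls2, higher for the mean Plvap effect, was lower there (-0.45 ± 0.09, adjusted p = 0.0130), as was Glud1, glutamate dehydrogenase (-0.45 ± 0.08, adjusted p = 0.0113).

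Genes other than the members were ranked by their correlation with each member, in log2 CPM deviations from group means over 46 libraries. The most alike were Slc25a13 for Oat (r = 0.64), Marc1 for Lhpp (0.66), Ints5 for Glul (0.69), Cipc for Slc1a2 (0.64) and Acsm1 for Rhbg (0.59). For Cyp2e1 they were 1300017J02Rik (0.73) and, within the first 3, Cyp2c37 (0.68), and for Cyp1a2 Gulo (0.69). Tbx3 was most like Angptl8 (0.82) and Ccn1 (0.74), and Ccn1 was also the first for Axin2 (0.71). Lgr5 was most like Sipa1l2 (0.71). Members were left out of this ranking. Oat and Lhpp were closer to each other (0.75) than to these genes, and Slc1a2 was closer to Cyp2e1 (0.71).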

How the data were processed

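Raw counts per Ensembl gene were deposited for 46 mouse livers in 4 tables. Per the submitters' processing notes the authors used STAR 2.7.8a, featureCounts 2.0, FastQC 0.11.9 and MultiQC 1.10.1 with GRCm39. The annotation release and counting strand are not given in the sources used here. A further column, of another unit, is the summed exon length in bases, per the file headers. Libraries held 6656340 to 23311500 counts, and among 85 within-group library pairs 0 were identical.

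Each comparison was fitted over all genes with edgeR 4.0.16 in R 4.3.3 (TMM, filterByExpr with a minimum count of 10 and a minimum total of 15, quasi-likelihood F-test with robust dispersions, Benjamini-Hochberg adjustment, called at 0.05). Chow fasted, refed and Cav1 tables were fitted alone, the 4 diet groups together, and comparisons across tables and the mean Plvap effect on the 8 groups of the Plvap line. Printed CPM use TMM factors over all 46 libraries. Correlations used log2(CPM + 0.5). Code was tested on simulated data. Alternatives were DESeq2 1.42.0, its size factors, no filter, a filter at 1 CPM, removal of the trend with gene length, only the groups compared, the replicate letter as a block, and each library left out. In refed livers, knockout and control libraries of the same letter deviated together (r from 0.286 to 0.326, each best with its own letter, 4 of 4). The labels do not say what samples of 1 letter share, and the main fit did not use the letters. Blocked values stand beside the calls they change. Where the labels do not say that samples of a group are separate cultures or litters, p-values measure the spread between these samples.

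Symbols were joined by Ensembl identifier from an annotation on an earlier build, and 52083 of 55416 genes had one. Members and gene lists were chosen with earlier results of these data known. The rule for named genes took all members and up to 4 called genes with the smallest p per list and comparison. For each member it also took the 3 genes outside the members with the highest correlation, of which some are printed. Wnt2, Rspo3, Apoa4 and the genes near Oat were named outside it, after their values were seen.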

Additional observations from a re-analysis of the deposited data

Results flagged for a closer look

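Dixon's test was applied to each member in each group, 100 sets in all, and 3 had a library apart from the rest; chance alone gives about 1 in 20. Cyp1a2 was at 223 CPM in chow fasted control E, where the other 5 libraries had 112 to 152. Slc1a2 was at 163 CPM in western diet knockout D, where the other 3 had 138 to 141. Lhpp was at 77.1 CPM in western diet knockout C, where the other 3 had 77.7 to 77.8, a gap of under 1 CPM.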

How the results depend on the processing

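Of 2330 values of a member in a comparison under an alternative, 2197 kept their direction and side of the threshold, 33 lost a call, 21 gained one, 0 called values changed sign, and 79 uncalled values changed sign. Members called in chow fasted livers numbered 2, and 4 with DESeq2 and with the replicate block. With no filter, Axin2 was called there in addition to Oat and Lhpp. In refed livers there were 0, and 2 with DESeq2 and with no filter and 1 with the replicate block. For Cav1 there were 2, and 1 with a filter at 1 CPM and 4 with no filter. DESeq2 and the replicate block each called Oat there in addition to Slc1a2 and Lhpp. On western diet there were 0, and 1 with DESeq2 and with no filter. Western against high-fat diet had 1 in controls and 0 in knockouts, and 0 and 1 (Tbx3) with only the groups compared. Leaving out each library gave 0 to 2 for chow fasted (0 without knockout B), 0 to 2 for Cav1, 0 to 1 for western diet (1 without control A) and 0 to 1 for western against high-fat controls. With the replicate block, Axin2 (adjusted p = 0.00687) and Tbx3 (0.00490) were also called in chow fasted livers, and Oat in the Cav1 experiment (0.0436), while Cyp2e1 in refed against chow fasted controls was not (0.0646). Same-letter libraries did not all deviate together in chow fasted livers (median r = 0.0078, 2 of 5 best with their own letter) or in the Cav1 experiment (1 of 4). Letters of the refed and chow fasted tables were not compared. Fits on only the groups compared were not run for the difference of effects and the mean effect, which need all groups.

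Over all genes, chow fasted knockouts had 289 calls, 717 with DESeq2, 861 with no filter, 713 with the replicate block and 90 to 550 with a library left out. Refed had 3, 59, 131, 30 and 0 to 4 in the same order. Cav1 had 607, 940 with DESeq2, 1279 with no filter and 330 to 671 with a library left out. High-fat diet knockouts had 38, 253 with DESeq2, 99 with no filter, 60 without the length trend and 4 to 61 with a library left out. Western diet knockouts had 2, 21 with DESeq2, 10 with no filter, 1 with only the groups compared and with the block, and 1 to 5 with a library left out. The difference of effects had 0, 55 with DESeq2, 10 with no filter and 0 to 1 with a library left out. Western against high-fat diet had 283 in controls (590 with DESeq2, 132 to 307 left out) and 1143 in knockouts (523 with the block, 367 to 1307 left out). Against chow controls, western diet had 258 (1.57 times as many with DESeq2, 136 with only the groups compared, 166 with the block, 149 to 271 left out) and high-fat diet 1204 (731 with no filter, 668 to 1341 left out). The low counts of Axin2, Lgr5 and Rhbg limit what can be seen in them.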
